A study of Mus musculus with 2 samples.

Results

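Tight and gap junction genes are those that encode claudins, MARVEL proteins, junctional adhesion molecules, their cytoplasmic scaffolds and polarity partners, and connexins. They were taken by gene name from the annotation of the arrays. Names starting with Cldn, Tjp, Gja, Gjb or Gjc and a digit were included, together with Ocln, Marveld2, Marveld3, F11r, Jam2, Jam3, Jam4, Cgn, Cgnl1, Crb3, Pard3, Pard6a, Pard6b, Inadl, Magi1, Magi2, Magi3 and Lsr. This gave 59 genes on 96 probes, of 27670 genes and unnamed probes on the arrays. Expression was compared between CD133-positive and CD133-negative fractions of GIF-5 cells, a line of gastric epithelium from mouse. The genotype is given as Runx3-/-p53-/- for both fractions. The cells were grown in DMEM with bovine serum, passaged with trypsin, and sorted by flow cytometry as single cells with an antibody against CD133. Each of 2 arrays held Cy3-labelled RNA of CD133-positive cells and Cy5-labelled RNA of CD133-negative cells.

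Tight junctions seal the space between epithelial cells near the apical surface. Claudins polymerise into the strands that set which ions pass between cells, occludin and related MARVEL proteins join those strands, and scaffolds of the zonula occludens family tie them to actin. Gap junctions are clusters of channels built from connexins, through which small molecules pass directly from cell to cell. Epithelia of the stomach rely on tight junctions to hold back acid, and Cldn18 is the claudin best known for that tissue.

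Of the 59 genes, 37 had a probe well above background in one of the fractions on both arrays and were tested. Of the 22 others, 19 stayed at background in both fractions and on both arrays, and 3 (Cldn4, Cldn23 and Gjb5) were above it in CD133-negative cells on 1 array alone. Each difference below is a log2 ratio with CD133-positive cells on top and CD133-negative cells below, given per array and as the mean (n = 2) ± the moderated SE of limma, which borrows variance from all tested genes. Levels are normalised log2 intensities of each fraction, which compare fractions for 1 gene but not different genes. With 2 levels per fraction, a lack of overlap between fractions says little. It also held for the scaffold gene Patj, at a log2 ratio of 0.18. A gene was called if its adjusted p in limma, a linear model across all 15267 tested genes with Benjamini-Hochberg adjustment, was under 0.05.

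The sorted marker Prom1, which encodes CD133, had log2 ratios of 3.83 and 3.73, so the labels and the dye direction fit the sort. In CD133-negative cells the Prom1 probe did not clear background, so this ratio is measured against a dim signal. The dyes were not swapped, so dye and fraction cannot be told apart for any gene. The labels call the arrays biological replicates and do not state whether the cultures and sorts were separate, so the spread between them may be technical. Of the 8 epithelial markers 6 were tested and none was called. The keratin genes Krt8, Krt18 and Krt19 were well above background in both fractions, with log2 ratios of -0.78, -0.54 and -0.79. Krt7, Cdh1 and Cldn7 went the other way, at 1.32, 0.42 and 0.38. Epcam and Esrp1 did not clear background on both arrays in either fraction and were not tested. The probes of the deleted genes Runx3 and Trp53 were well above background in both fractions, with log2 ratios of 0.05 ± 0.14 and -0.05 ± 0.14. Whether these probes lie in the deleted parts is not given in the sources used here, so they do not check the genotype. In bulk RNA of sorted cells, fewer cells that express a gene and less RNA per cell cannot be told apart.

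Of the 37 tested junction genes, 3 rose in CD133-positive cells and none fell (limma). They were the connexin gene Gja1, the occludin gene Ocln and the scaffold gene Tjp3, by 2.64, 1.81 and 1.53 on the log2 scale. Over all tested genes 1.38% were called higher and 0.262% lower. At least a 2-fold difference in the same direction on both arrays was found in 4 junction genes above 0 (Gja1, Ocln, Tjp3 and Igsf5) and in 3 below 0, Gjc1 among them, where all tested genes gave 2.5% higher and 2.12% lower. At an unadjusted limma p under 0.05, 10 junction genes were higher and 7 lower, against 11.9% and 16% of all tested genes. The median ratio of the junction genes was 0.00, against -0.03 over all tested genes, so they did not shift as a whole. The direction was the same on both arrays in 29 of the 37, or 78.4%, against 72.2% of all tested genes. The SD of the ratios over the junction genes was 0.81 on array 1 and 1.13 on array 2, and over all tested genes it was 0.60 on array 1 and 0.76 on array 2.

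The 3 calls did not hold under every setting. All 3 were lost without the filter on dim probes (limma adjusted p = 0.095 for Gja1, 0.1 for Ocln and 0.11 for Tjp3) and without moderation of the variances, and Gja1 alone was called in a test against a log2 fold of 0.5. With the ratios scaled between arrays, 5 junction genes were called higher and 2 lower, against 2.42% and 1.7% of all tested genes. With median centring in place of loess, 3 were called higher and 20 lower, or 54.1% lower, against 63% of all tested genes. That centring moved the median of all tested genes to -0.74 and of the junction genes to -0.64.

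**Figure D1:**
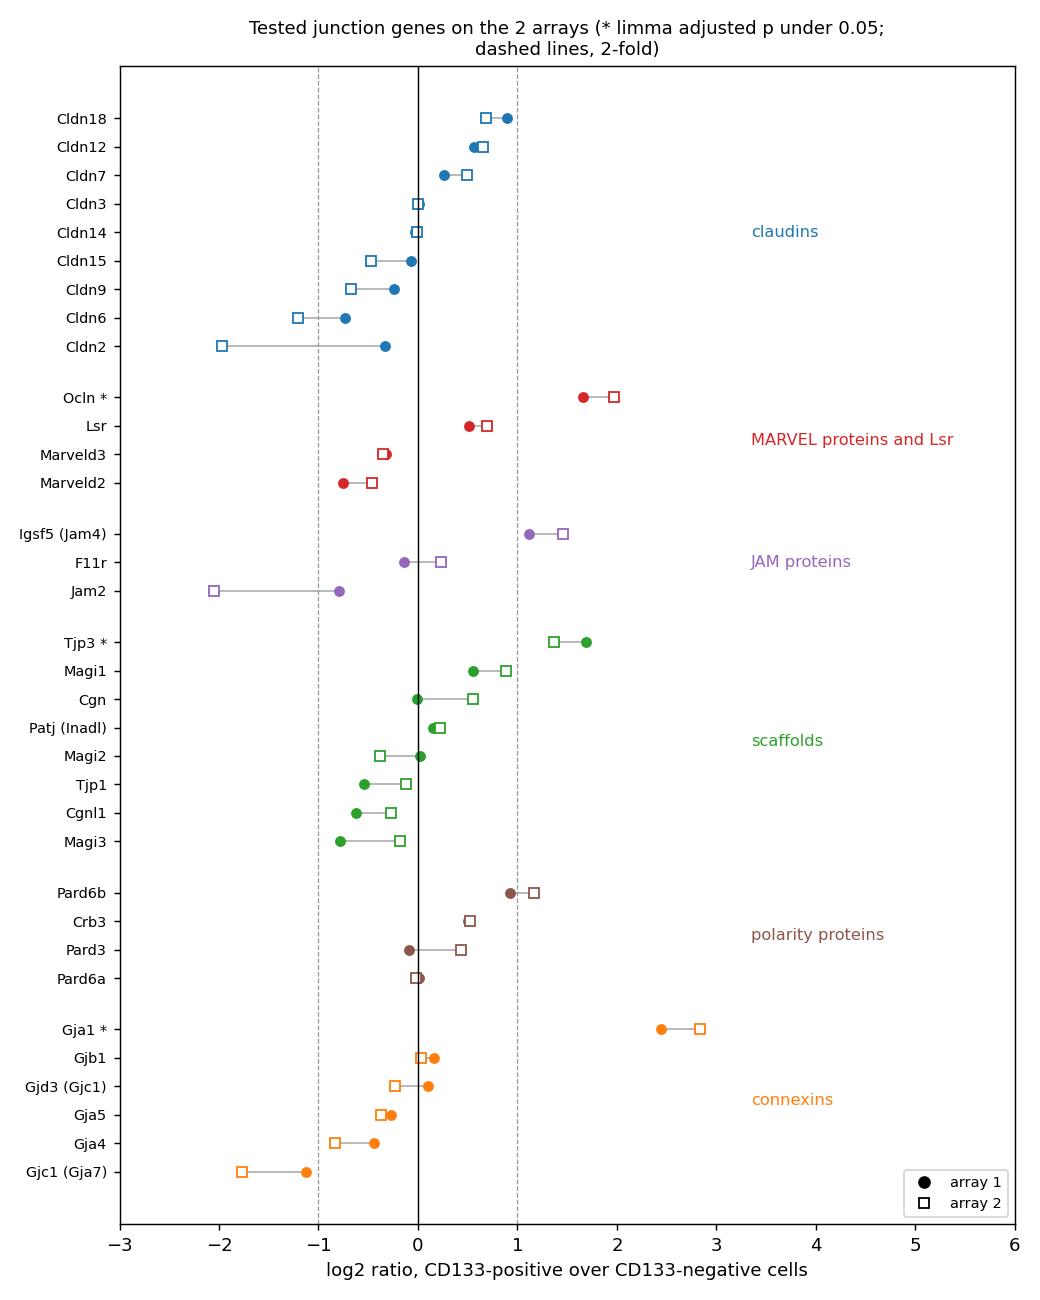
Log2 ratio, CD133-positive over CD133-negative cells (x axis), for 34 of the tested junction genes (rows, grouped by role; the name in the files is in brackets where it differs), with array 1 as filled circles and array 2 as open squares, and dashed lines at a 2-fold difference. Gja1, Ocln and Tjp3 carry the star of limma adjusted p under 0.05; Gjc1 lies beyond the 2-fold line below 0 on both arrays.

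Connexins are the channel subunits of gap junctions, and one of them had the highest ratio of all the tested junction genes. Gja1 encodes Cx43, the most widespread connexin. Its level was 8.52 and 9.33 in CD133-positive cells on arrays 1 and 2, against 6.08 and 6.49 in CD133-negative cells. The fractions did not overlap, and both values of CD133-negative cells lay near the dim end of the scale. Gja1 rose by 2.64 ± 0.17 on the log2 scale (2.44 and 2.84 on the arrays, 6.23-fold, limma adjusted p = 0.023). The size depends on how dim signal is treated: the log2 ratio was 3.28 with a background offset of 16 in place of 50 and 4.24 with the deposited processed signals.

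Gjc1, named Gja7 on the arrays, encodes Cx45 and did not pass the test. It was at 9.87 and 9.54 in CD133-positive cells, against 11 and 11.30 in CD133-negative cells. The fractions did not overlap, and array 2 showed the larger difference. The log2 ratio of Gjc1 was -1.45 ± 0.21 (limma adjusted p = 0.068), with -1.13 and -1.77 as its array values, and its second probe gave -1.05 and -1.59. Gjc1 was called lower with scaling between arrays and with an intensity trend. It was also called lower with median centring, where 63% of all tested genes were. Set against the median of every tested gene, its log2 ratio ran from -1.61 to -1.36 over the alternatives.

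The connexin genes Gja4, Gja5, Gjb1 and Gjd3 were closer to 0 than Gjc1. Gja4 (Cx37) and Gja5 (Cx40), known from blood vessel walls, had log2 ratios of -0.64 ± 0.17 and -0.32 ± 0.14, with limma adjusted p of 0.12 and 0.24. With the deposited processed signals Gja4 was at -1.48 and was not called. Gjb1, which encodes Cx32 of the liver, was at 0.10 ± 0.14 (0.38 with those signals), and Gjd3, named Gjc1 on the arrays, at -0.07 ± 0.16 with opposite signs on the arrays. Gjb2 (Cx26) and Gjb6 (Cx30), which are co-expressed in the inner ear, were among the 9 connexins not tested, as were Gja3, Gja6, Gja10, Gjb5 and Gjd2. Over the 8 tested connexins the median log2 ratio was -0.48, with 5 below 0 and 2 above 0 on both arrays.

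Some markers of another cell type moved with the fraction. Of the 8 endothelial markers 2 were tested and both were called higher in CD133-positive cells: Vwf (3.75 ± 0.15) and Cdh5 (2.61 ± 0.25, with its probe at background in CD133-negative cells). Pecam1, Kdr, Tek, Emcn, Tie1 and Cldn5, which is also one of the 59 junction genes, had no tested probe. The summed log2 level of the 8 endothelial markers was 11.03 and 11.48 in CD133-positive cells, against 9.09 and 9.21 in CD133-negative cells. This sum includes the markers with no tested probe, so it is not a further result beside Vwf and Cdh5. The junction genes Gja4, Gja5 and Jam2, known from vessel walls or endothelial junctions, had log2 ratios of -0.64, -0.32 and -1.42 and were not called. The part of the endothelial markers in the result of Gja1 was not tested. Of the 8 blood cell markers and the 8 markers of fibroblasts and muscle, 4 each were tested and none was called.

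**Figure D2:**
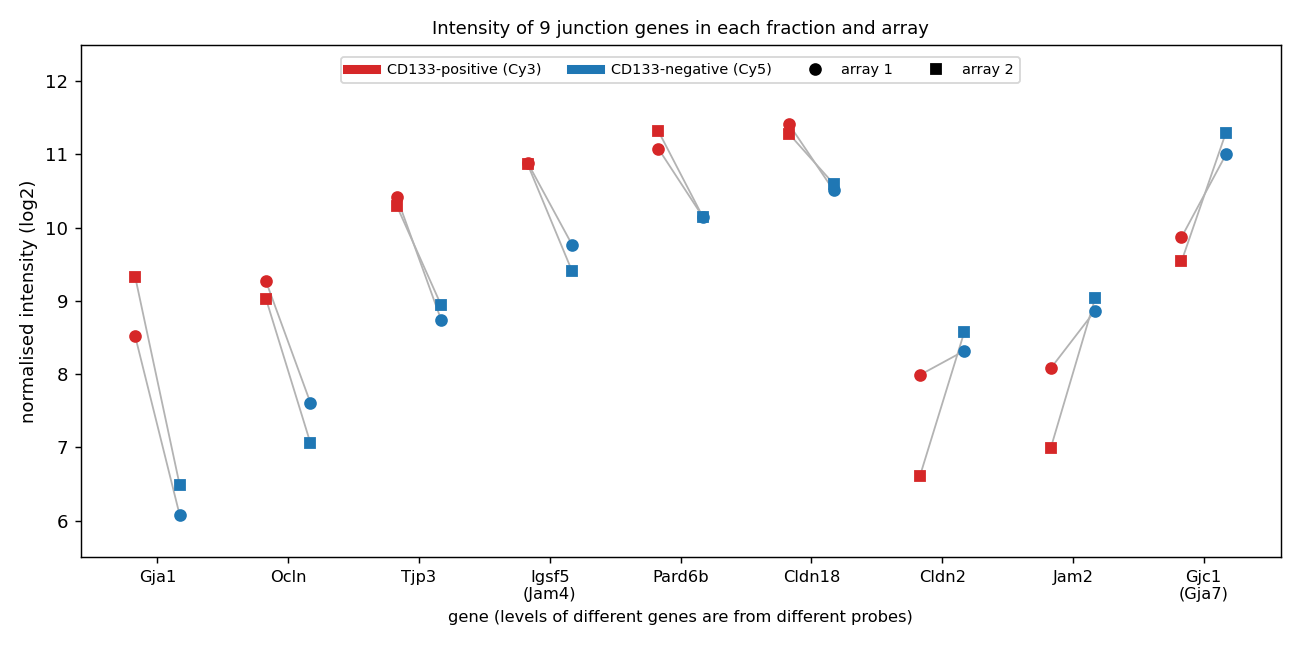
Normalised log2 intensity (y axis) of the 6 junction genes with the highest mean ratio and of Cldn2, Jam2 and Gjc1. Cldn2, Jam2 and Gjc1 had mean log2 ratios of -1.15, -1.42 and -1.45, with Cldn2 at -0.33 on array 1. CD133-positive cells are red (left) and CD133-negative cells blue (right), with circles for array 1 and squares for array 2. A line joins the fractions of 1 array. Gja1 was at 8.52 and 9.33 in CD133-positive cells and at 6.08 and 6.49 in CD133-negative cells; Cldn2 and Jam2 show lines of unequal slope on the arrays.

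Ocln encodes occludin, the first transmembrane protein found in tight junctions. Its level was 9.27 and 9.03 in CD133-positive cells, against 7.61 and 7.06 in CD133-negative cells, with no overlap. Ocln rose by 1.81 ± 0.16 on the log2 scale (1.66 and 1.97 on the arrays, 3.52-fold, limma adjusted p = 0.036). A dimmer probe of Ocln gave 0.42 and 0.22. It did not clear background in CD133-negative cells, so its difference of 1.25-fold was measured against a dim signal. With the probes of a gene averaged, the log2 ratio of Ocln was 1.07 and the call was lost (limma adjusted p = 0.058).

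The other MARVEL proteins and Lsr did not pass. Marveld2 encodes tricellulin, which sits where the corners of epithelial cells meet, and Lsr encodes the protein that recruits it there. Lsr was at 15.39 and 15.59 in CD133-positive cells, against 14.88 and 14.89 in CD133-negative cells, a log2 ratio of 0.60 ± 0.14 (limma adjusted p = 0.11). Marveld2 had a log2 ratio of -0.60 ± 0.15 (limma adjusted p = 0.12), with -0.75 and -0.46 as its array values. A dimmer probe of Marveld2 gave -0.33 and -0.10. The ratio of Lsr was -0.62 after median centring, which is 0.12 above the median of all tested genes there. Marveld3 was dim in both fractions, at -0.34 ± 0.14, and its other probe at 0.03. With the deposited processed signals the ratio of Marveld3 was -1.72, still not called.

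Tjp3, the scaffold of the zonula occludens family found mainly in epithelia, was at 10.42 and 10.30 in CD133-positive cells, against 8.74 and 8.94 in CD133-negative cells. It rose by 1.53 ± 0.16 on the log2 scale (1.69 and 1.37 on the arrays, 2.88-fold, limma adjusted p = 0.048). The fractions did not overlap, and the adjusted p lay close to the threshold. The related scaffold Tjp1, present in most epithelia and in other cells, was at -0.33 ± 0.17 (limma adjusted p = 0.31). Its array values were -0.54 and -0.12, and a dimmer probe of Tjp1 gave -0.14 and -0.07.

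Magi1, a scaffold that binds Igsf5, was at 12.91 and 13.47 in CD133-positive cells, against 12.37 and 12.58 in CD133-negative cells. Its log2 ratio was 0.72 ± 0.16 (limma adjusted p = 0.1), and a second probe gave 0.60 and 0.94. Magi2 and Magi3 were at -0.18 ± 0.17 and -0.48 ± 0.21. Cgnl1, which encodes paracingulin, was at -0.45 ± 0.16, and all 5 of its probes were below 0 on both arrays. Cgn, which encodes cingulin, was at 0.27 ± 0.20, but a second probe of Cgn gave -0.90 on array 1 and 0.18 on array 2. Patj, the multi-PDZ scaffold named Inadl on the arrays, was at 0.18 ± 0.14. Over the 9 scaffolds the median log2 ratio was 0.18, and 3 were above 0 on both arrays, 3 below, and 3 had opposite signs.

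Of the polarity genes none passed. Pard6b, an adaptor of the complex that positions tight junctions, was at 11.08 and 11.32 in CD133-positive cells, against 10.15 and 10.15 in CD133-negative cells. The log2 ratio of Pard6b was 1.05 ± 0.15 (limma adjusted p = 0.068), its other probes gave 0.48 and 0.97, and 0.96 and 1.21, and it was called with scaling between arrays and with an intensity trend. Crb3, the apical membrane anchor of the Crumbs complex, was at 0.51 ± 0.14 (limma adjusted p = 0.12). Pard3 and Pard6a were at 0.17 ± 0.19 and 0.00 ± 0.14.

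Among the junctional adhesion molecules, F11r, which encodes the form usual in epithelia, was bright and nearly equal, at 14.63 and 14.76 in CD133-positive cells, against 14.77 and 14.53 in CD133-negative cells. Igsf5, named Jam4 on the arrays, was at 10.89 and 10.87 in CD133-positive cells, against 9.77 and 9.41 in CD133-negative cells. Its log2 ratio was 1.29 ± 0.16 (limma adjusted p = 0.062), and a second probe gave 1.02 and 1.19. Igsf5 was at least 2-fold higher on both arrays and was called with no background correction, with an offset of 16, with scaling between arrays and with an intensity trend. Jam2, known from endothelial junctions, had 8.08 and 6.99 in CD133-positive cells, against 8.87 and 9.04 in CD133-negative cells. The log2 ratios of Jam2 were -0.79 and -2.05, a mean of -1.42 ± 0.35 (limma adjusted p = 0.11). A second probe of Jam2, too dim to be tested, gave -0.06 and -0.12. Jam3 was not tested.

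No claudin passed the test in either direction. Of 21 claudin genes, 9 were tested. Cldn18, the stomach claudin, was at 11.41 and 11.28 in CD133-positive cells, against 10.51 and 10.60 in CD133-negative cells. The fractions did not overlap, and the log2 ratio was 0.79 ± 0.15 (limma adjusted p = 0.084). Set against the median of every tested gene it ran from 0.60 to 0.88 over the alternatives, and after median centring the ratio itself was -0.14. Other genes of stomach surface and gland cells moved with the fraction: of 7 other tested markers, Gkn2 (5.60 ± 0.15), Tff1 (4.40 ± 0.15) and Muc1 (1.78 ± 0.15) were called higher and none lower. Atp4a, Atp4b, Gif and Muc5ac were not tested.

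Cldn6, known from embryonic epithelia, had 10.76 and 10.28 in CD133-positive cells, against 11.49 and 11.49 in CD133-negative cells. Its log2 ratio was -0.97 ± 0.18 (limma adjusted p = 0.086). Cldn2, which forms pores for cations and water, differed most between the arrays. It was at 7.99 and 6.61 in CD133-positive cells, against 8.32 and 8.58 in CD133-negative cells, with log2 ratios of -0.33 and -1.97 (limma adjusted p = 0.2). With the deposited processed signals its mean was -2.18, that of Cldn15 -0.64 and that of Cldn7 2.23, and none of these was called. The remaining claudins were closer to 0. Cldn12 was at 0.60 ± 0.14, Cldn9 at -0.45 ± 0.17 and Cldn15, a cation pore of the intestine, at -0.27 ± 0.17. Cldn3, a sealing claudin of many epithelia, and Cldn14 were dim in both fractions and at 0.00 and -0.02. Cldn7 was well above background in CD133-positive cells alone, at 6.31 and 6.44, against 6.04 and 5.94 in CD133-negative cells. Its difference of 1.3-fold was measured against a dim signal and was not called (limma adjusted p = 0.2).

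The 12 claudins not tested included Cldn1 and Cldn4, sealing claudins common in epithelia. Neither Cldn1 probe cleared background in CD133-positive or CD133-negative cells. The probe of Cldn4 was above it in CD133-negative cells on 1 array. Cldn5, the claudin of endothelium, was not well above background either, nor were Cldn8, Cldn10, Cldn11, Cldn13, Cldn16, Cldn17, Cldn19 and Cldn22. A single probe or pair of probes stood for each of these genes, so a level under the detection limit of a probe is all these values show.

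**Figure D3:**
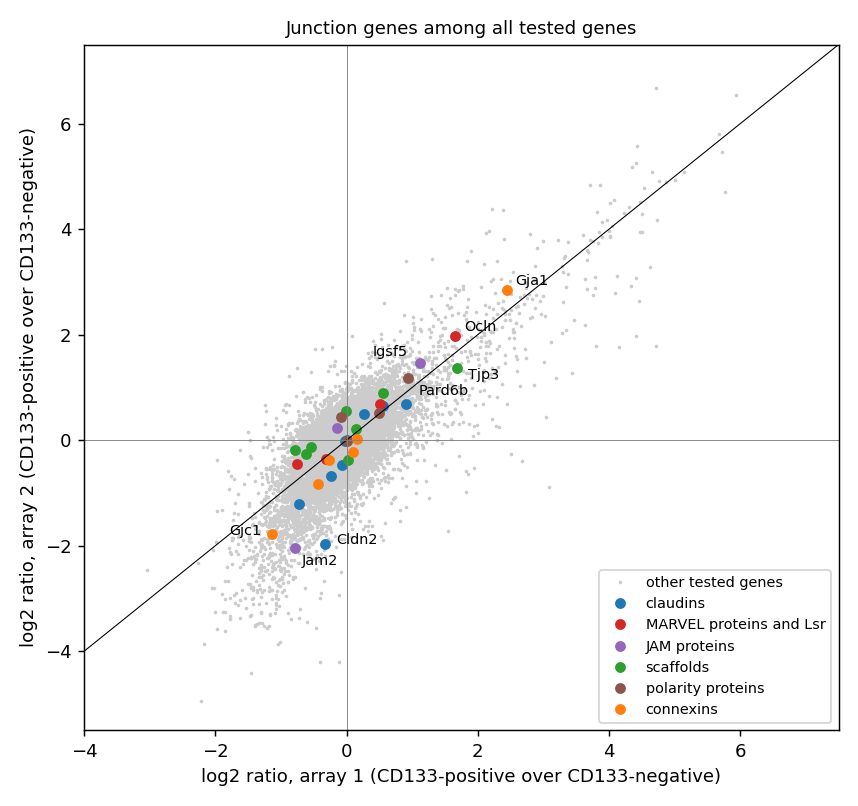
Log2 ratio on array 1 (x axis) and array 2 (y axis) for all 15267 tested genes (grey) and 34 of the tested junction genes (coloured by role), with a line where the arrays are equal; genes with a mean of at least 2-fold are named. Gja1, at 2.44 and 2.84, lies close to the line, while Cldn2, at -0.33 and -1.97, and Jam2, at -0.79 and -2.05, lie below it.

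The arrays differed in the size of the ratios, in both directions. Of 16 junction genes below 0 on both arrays, 11 were lower on array 2, and of 13 above 0 on both, 10 were higher there. Over all tested genes, 69% of those below 0 on both arrays were lower on array 2, and 55.5% of those above 0 were higher. The 10 spiked-in control RNAs were all lower on array 2, by a median log2 difference of -0.37. On array 1 alone 3 junction genes were at least 2-fold lower, and on array 2 alone 6, among them Jam2, Cldn2, Gjc1 and Cldn6.

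Several junction genes lie next to each other in the genome, and 19 of the 59 fall into 8 runs of neighbouring protein-coding genes in the RefSeq table (GRCm38.p6, used here for order alone). Cldn6 and Cldn9, a neighbouring pair, were at -0.97 and -0.45. Ocln and Marveld2 are also neighbours and went opposite ways, with Ocln at 1.81 and Marveld2 at -0.60. Of these 4 genes only Ocln passed the test, so the shared sign of Cldn6 and Cldn9 is a description of these arrays.

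The promoters of the 3 genes that rose are shown because the data single out these genes, and because factors that bind such promoters were measured on the same arrays. Each line gives the 250 bases before the transcription start in RefSeq (GRCm38.p6), 5′ to 3′ on the strand of the gene, at chr10:56377050-56377299 on the plus strand for Gja1, chr13:100552499-100552748 on the minus strand for Ocln and chr10:81291268-81291517 on the minus strand for Tjp3. For Ocln and Tjp3, which have a further start, the more downstream one is shown. Capitals mark the motifs searched on both strands: CAGGTG (the E-box bound by Snail and Zeb repressors, CACCTG on the other strand), AACNGGTT (Grainyhead-like factors, AACCNGTT on the other strand), TGANTCA (AP-1) and GGGCGG (GC box, CCGCCC on the other strand).
Gja1: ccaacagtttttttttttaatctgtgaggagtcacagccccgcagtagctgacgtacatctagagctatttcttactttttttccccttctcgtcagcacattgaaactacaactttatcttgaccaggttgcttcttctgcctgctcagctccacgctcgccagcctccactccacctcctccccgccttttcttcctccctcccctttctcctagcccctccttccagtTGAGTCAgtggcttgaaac
Ocln: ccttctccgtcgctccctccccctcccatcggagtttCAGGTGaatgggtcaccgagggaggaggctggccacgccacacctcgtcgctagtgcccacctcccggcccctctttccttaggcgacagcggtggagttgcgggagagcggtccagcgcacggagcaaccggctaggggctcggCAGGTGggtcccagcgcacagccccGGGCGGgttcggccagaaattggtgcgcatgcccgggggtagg
Tjp3: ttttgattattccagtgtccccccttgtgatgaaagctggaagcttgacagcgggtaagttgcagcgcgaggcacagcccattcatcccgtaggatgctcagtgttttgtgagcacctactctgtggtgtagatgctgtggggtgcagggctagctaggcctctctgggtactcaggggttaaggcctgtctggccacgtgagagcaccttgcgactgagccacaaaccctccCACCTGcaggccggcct

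The Gja1 window held 1 AP-1 motif, which began 19 bases before the start, and none of the other motifs. The Ocln window held 2 E-boxes, beginning 213 and 68 bases before the start, and a GC box. The more upstream window of Ocln held a GC box and no E-box. The Tjp3 window held 1 E-box, beginning 17 bases before the start, and its more upstream window held 1 more. Promoter windows were matched for 44 of the 59 junction genes. Of 66 windows of these genes 30.3% held an E-box, against 17.2% of all 32851 windows in the table, and 54.5% held a GC box, against 32.7%. The AP-1 motif was in 9.09% of the windows of junction genes, against 6.75% of all windows, and the Grainyhead motif in 4.55%, against 1.79%. A match is a description of these letters and not a binding site.

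Among transcription factors known to act on junction genes, none of 14 tested was called and the median log2 ratio was -0.03. Snai2, Zeb2 and Twist2, repressors of epithelial genes, were at -1.79 ± 0.21, -1.57 ± 0.23 and -2.22 ± 0.34 (limma adjusted p = 0.057, 0.068 and 0.074), and each was past a 2-fold difference on each array. The probes of Twist2, Snai1 and Grhl2 did not clear background on both arrays in the CD133-positive fraction, so their ratios there are measured against dim signal. Snai1 and Zeb1 were at -0.50 ± 0.18 and -0.68 ± 0.18. Gata4, a factor of stomach and gut epithelium, was at 1.16 ± 0.17 and the epithelial factor Elf3 at 1.03 ± 0.14 (limma adjusted p = 0.07 and 0.067). Grhl1 and Grhl2, Grainyhead-like factors of epithelia, were at 0.56 ± 0.14 and -0.24 ± 0.14, and the intestinal factors Hnf4a and Cdx2 at 0.57 ± 0.15 and 0.19 ± 0.15. Twist1, Grhl3, Ovol1 and Cdx1 were not tested.

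Of 24 further tight junction and polarity genes 23 were tested, with a median log2 ratio of -0.43. Ildr2, a relative of Lsr, fell by 1.96 on the log2 scale (-1.99 and -1.94 on the arrays, limma adjusted p = 0.024), and none rose. Pard6g, the relative of Pard6b, was at -1.82 ± 0.26 (limma adjusted p = 0.068) and past a 2-fold difference on each array. Mpdz, the relative of Patj, was at -1.20 and -0.79 on the arrays and Amotl2, an angiomotin-like protein of tight junctions, at -0.98 ± 0.16. The atypical protein kinase genes Prkci and Prkcz, partners of the Pard proteins, were at -0.43 ± 0.18 and -0.38 ± 0.15, and Llgl2 at 0.48 ± 0.14.

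Of the adherens junction and nectin genes none of 11 tested was called, and the median log2 ratio was -0.24. Cdh1, which encodes E-cadherin, was at 0.42 ± 0.21 with 0.72 and 0.11 on the arrays, and Ctnnb1, which encodes beta-catenin, at -0.69 ± 0.14 (limma adjusted p = 0.28 and 0.088). Pvrl3, a nectin, had the highest ratio of this list, 0.56 ± 0.20, and Mllt4, the nectin-binding afadin, was at -0.69 ± 0.15. Panx1, of the pannexins, channel proteins related in shape to connexins, was at -0.22 ± 0.15, and Panx3 was not tested. No list other than the endothelial and stomach markers had more than 1 called gene.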

How the data were processed

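RNA of both fractions was hybridised to 2 Agilent 2-colour arrays of 1 slide. The deposited spot and background intensity columns come, per the file headers, from Agilent Feature Extraction 9.5.3.1 and are unnormalised. Its processed intensity columns, as deposited, are background-subtracted, detrended and dye-normalised. As deposited, the log10 ratio is red over green, and the value table holds the same log10 ratio in all 45018 spots of each array, with a median of 0. No spot of a junction gene was saturated.

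Intensities were corrected by normexp (offset 50) and normalised by loess, with control spots at weight 0. A probe was tested if well above background in Cy3 or in Cy5 on both arrays, after flagged spots were left out. A gene took its brightest tested probe. Channel levels were scaled with Aquantile. RefSeq gave names to 77 of the 96 junction probes by accession and to 19 by symbol. The mean ratio was tested with limma 3.58.1 in R 4.3.3 (two-sided, 1 residual and 2.86 prior degrees of freedom). For a probe not above background in a fraction, the ratio uses its dim signal there and is not a bound. Counts and medians cover all tested junction genes, and the values of some single genes are not reported here. The members and lists were chosen with earlier results of these data known, and the misspelled symbol of Sympk in one list was corrected afterwards. Alternatives covered centring, offset, signal source, filter, probe choice, variance model and each array left out. The number of arrays limits the precision.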

Additional observations from a re-analysis of the deposited data

How the results depend on the processing

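Gja1, Ocln and Tjp3 stayed above 0 under each of 13 alternatives and on each array alone. All 3 calls were lost without a filter on dim probes (0 junction genes higher, median log2 ratio -0.02) and without moderation (0 higher, and 0 of all tested genes called), and Gja1 alone, 1 gene, was called by treat against a log2 fold of 0.5. Averaging the probes of a gene lost Ocln. Scaling between arrays and an intensity trend each gave 5 higher and 2 lower, against 2.42% and 1.7% of all tested genes with scaling and 3.24% and 2.14% with the trend. Median centring in place of loess gave 20 called lower (63% of all tested genes), with a median of -0.64; 1 gene was past 2-fold upwards and 11 downwards on both arrays (1.34% and 23.6% of all). The median was 0.07 with the processed signals and with the value table. It ran from -0.03 to -0.01 with an array left out, and the genes at least 2-fold lower from 3 to 6, with 6 when array 1 was left out (7.91% of all tested genes). With both arrays kept, uncalled ratios that changed sign did so under median centring. There F11r was at -1.14, Pard3 at -0.72, Patj at -0.71, Lsr at -0.62 and Cgn at -0.52. Magi1 was at -0.34, Crb3 at -0.31, Cldn12 at -0.27 and Cldn18 at -0.14. Set against the all-gene median under that centring, F11r remained below 0. On array 1 alone F11r (-0.14), Pard3 (-0.09), Cgn (-0.01), Gjd3 (0.10) and Magi2 (0.02) had the sign opposite to their mean. Among the values of single genes under an alternative, 21 gained and 9 lost a call in the same direction. Another 9 changed sign under median centring, of which 4 (F11r, Lsr, Pard3 and Patj) were then called. These counts leave out changes of sign on 1 array alone, and 8 tested junction genes had opposite signs on the 2 arrays. The cause of these changes was not tested. The reported test on ratios within an array is already the paired one. No further paired analysis was possible because each array gives 1 ratio per gene, which leaves no replicate number to add as a block.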
